A study of Homo sapiens with 6 samples.

Results

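The 9 genes described here belong to the aryl hydrocarbon receptor pathway. They were taken by symbol from 58051 genes counted in total RNA of DLD-1, a colorectal adenocarcinoma cell line of human origin. They are the receptor AHR, its partner ARNT, its repressor AHRR and the target genes CYP1A1, CYP1A2, CYP1B1, CYP1B1-AS1, TIPARP and NQO1. All 9 passed the filter that left 16974 genes for testing, which asked for a CPM (counts brought to 1 library size) of more than 1 in 3 or more libraries. CYP1A2 passed it narrowly, with 4 of 6 libraries above that level.

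The cells carried the genotype AID-NeonGreen-TPR, in which the nuclear basket protein TPR of the nuclear pore was joined, at its own gene, to the AID degron and to fluorescent NeonGreen. The ligase adaptor TIR1, which lets auxin trigger destruction of the tagged protein, was expressed from the RCC1 locus. All 6 cultures received Leptomycin B (LMB), an inhibitor of the export receptor CRM1, at 200 nM for 3 h according to the incubation times and the study's methods, whereas the sample titles read 2 h. The 3 LMB cultures received nothing else, and the 3 LMB+auxin cultures also received 1 mM auxin for the last 2 h. No library without LMB, and none from cells with auxin but no degron, was analysed here, so an effect of the auxin compound and one of TPR loss cannot be told apart. The comparison asks how RNA levels differ after auxin treatment, meant to remove TPR, in cells that also received the CRM1 inhibitor.

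The aryl hydrocarbon receptor is a transcription factor that waits in the cytoplasm in a complex with HSP90 until a small ligand binds it. Ligands include dioxins, polycyclic aromatic hydrocarbons and indoles made from tryptophan. Auxins are plant hormones, some of which are indoles, and whether the auxin used here acted on the receptor was not tested. The receptor with its ligand enters the nucleus, pairs with ARNT and binds DNA elements with the core GCGTG, and it leaves the nucleus again through CRM1. In the intestinal epithelium it is known as a sensor of dietary and microbial compounds, and the cytochrome P450 genes of the CYP1 family are its best known targets. AHRR and TIPARP are targets as well as inhibitors of the receptor and so form negative feedback.

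The libraries held 28261903 to 35992425 counts each. Of 10 colon epithelial markers 8 were above 1 CPM in all 6 libraries, with CEACAM5 and LGALS4 below it, and their summed level was 7558 to 7915 CPM in LMB and 7647 to 8057 CPM in LMB+auxin. Of 8 markers of blood, endothelial and stromal cells only VWF was above 1 CPM in all libraries, and their summed level was 4.918 to 6.241 CPM in LMB and 4.023 to 6.327 CPM in LMB+auxin. CPM values were scaled with TMM factors, and fold changes are LMB+auxin over LMB. A gene was called at an adjusted p under 0.05 in the quasi-likelihood test of edgeR together with a fold change of at least 1.3 in either direction.

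The sequence before the transcription start was examined first, because it is where the receptor can meet its targets. The RefSeq promoters used here covered 8 of the 9 genes (assembly GRCh38.p14), each agreeing with the reference genome base for base. CYP1B1 had none among them, so the sequence before its start was not searched. The core GCGTG, read on both strands as GCGTG or CACGC, and a wider form with part of the known flanking sequence, TNGCGTG, of which each match also contains the core, were counted in the 1500 bases before each start. CYP1A1 held 10 cores and 5 matches to the wider form. Of 35116 promoters in the RefSeq table, 0.629% held at least as many cores in 1500 bases and 0.0228% at least as many matches to the wider form, whereas 72.9% and 23.2% held at least 1. For CYP1A1 the proximal stretch with 1 core (chr15:74725537-74725778, minus strand) and the distal stretch with 4 cores (chr15:74726394-74726643, minus strand) are shown, and for TIPARP the stretch before its first start with 2 cores (chr3:156674340-156674589, plus strand). Capitals mark the core on either strand.
CYP1A1 proximal: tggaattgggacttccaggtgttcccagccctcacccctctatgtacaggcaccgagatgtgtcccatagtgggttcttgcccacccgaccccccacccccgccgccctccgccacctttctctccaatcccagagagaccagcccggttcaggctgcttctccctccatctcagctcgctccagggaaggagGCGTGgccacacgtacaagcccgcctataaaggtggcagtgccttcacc
CYP1A1 distal: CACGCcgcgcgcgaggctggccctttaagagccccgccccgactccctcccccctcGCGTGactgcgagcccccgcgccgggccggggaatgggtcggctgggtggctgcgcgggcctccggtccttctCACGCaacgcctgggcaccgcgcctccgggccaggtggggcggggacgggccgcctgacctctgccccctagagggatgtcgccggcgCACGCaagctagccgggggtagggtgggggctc
TIPARP proximal: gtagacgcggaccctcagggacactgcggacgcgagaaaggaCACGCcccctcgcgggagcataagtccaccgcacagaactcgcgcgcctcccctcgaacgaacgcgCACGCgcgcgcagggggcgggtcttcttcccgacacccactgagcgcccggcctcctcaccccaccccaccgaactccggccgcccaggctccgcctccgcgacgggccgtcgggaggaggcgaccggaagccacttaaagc

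The CYP1A1 stretches lie before the gene and outside its exons, the distal one from 1115 to 866 bases before the start. This distal stretch was chosen as a 250-base window with the most cores beyond the nearest 250 bases, so its 4 cores follow from that choice. The first bases of the TIPARP stretch lie in an exon of the divergent lncRNA TIPARP-AS1, and all of it lies in an intron of a longer TIPARP transcript. Before the first start TIPARP held 6 cores in 1500 bases, a number reached by 5.9% of promoters, with no match to the wider form. In the 250 bases next to the start, where 32.2% of promoters held a core and 4.52% the wider form, TIPARP held 2 cores, CYP1A1 and CYP1B1-AS1 1 each, and AHRR 1 at its upstream and 2 at its downstream start. The second and the last TIPARP start held 0 cores in the nearest 250 bases and 6 and 2 cores in 1500 bases, with 1 match to the wider form before the last. The 6 cores before the second TIPARP start are the same sites as the 6 before the first. CYP1B1-AS1 held this 1 core, a match to the wider form, within its 1500 bases and no other. At the upstream start of AHRR 4 cores were found in 1500 bases and at its downstream start 8, numbers reached by 18.5% and 1.8% of promoters. These windows overlap. The cores 578, 396 and 30 bases before the upstream start are those 1474, 1292 and 926 bases before the downstream start. ARNT held 5 (10.6% of promoters), NQO1 held 2, CYP1A2 held 1 and AHR held none. The starts used for AHR (17298652) and CYP1B1-AS1 (38131105) lie well inside the gene spans given below. The sequence before the upstream ends of these spans was not searched. ARNT also held 2 matches to the wider form, a number reached by 3.66% of promoters. Each AHRR start had 1 such match, and it is the same site, 32 bases before the upstream and 928 bases before the downstream start. NQO1, CYP1A2 and AHR had no match to the wider form. A match is a run of letters, and binding was not measured in these libraries.

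**Figure D1:**
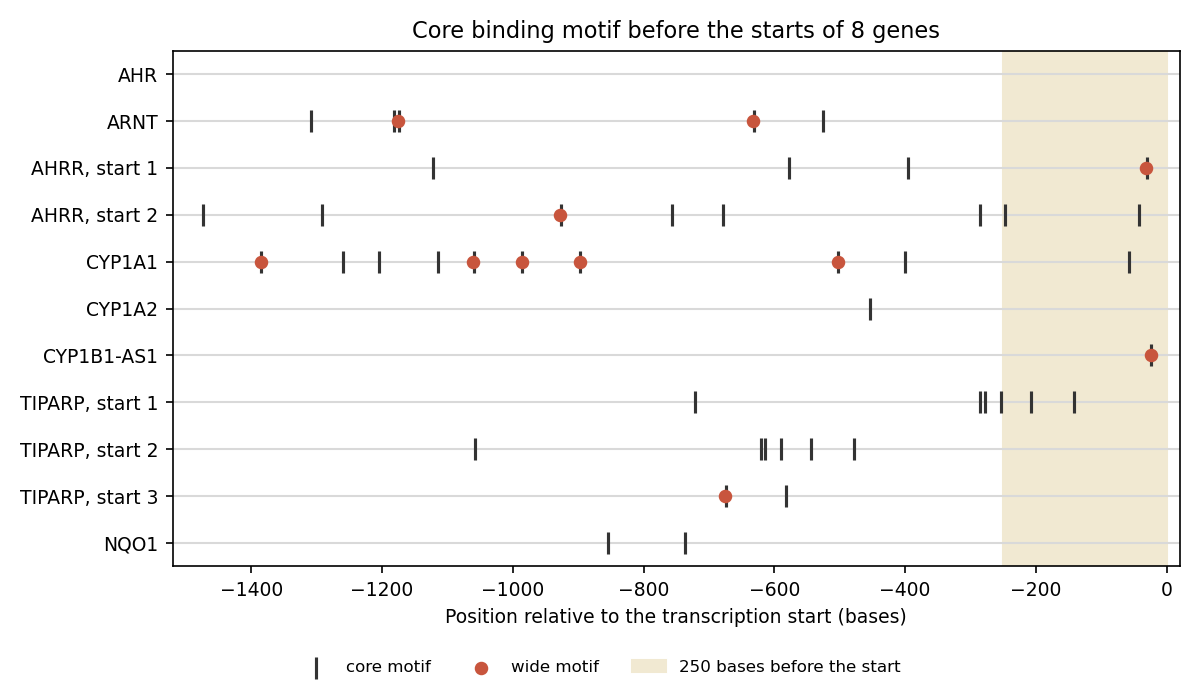
Positions of the core GCGTG (bars, either strand) and of the wider form TNGCGTG (dots) in the 1500 bases before the RefSeq starts of 8 genes, in bases from the start. CYP1A1 carried 10 cores and 5 matches to the wider form. Of its cores 4 stood between 1115 and 866 bases before the start, a stretch chosen for its number of cores. The windows of both AHRR starts overlap, as do those of the first and second TIPARP starts, so shared sites are drawn at each.

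Among the 9 genes CYP1A1, TIPARP, CYP1B1-AS1 and CYP1B1 were higher in all 3 LMB+auxin libraries than in any LMB library, by 2.23-, 1.528-, 1.443- and 1.274-fold. A separation of the groups in this direction was found for 4.90% of all tested genes. Receptor, partner, repressor, CYP1A2 and NQO1 overlapped between the groups. None of the 9 was called by edgeR without a term for the replicate number, where 0.00589% of tested genes, a single gene, were called higher. Same-numbered libraries of both groups deviated together, and with the replicate number as a block CYP1B1-AS1 and TIPARP were called higher, as were 0.300% of tested genes, while 1.18% (201 genes, 150 of them lower) were called in either direction. DESeq2, the tool the authors used, called CYP1A1, CYP1B1-AS1 and TIPARP higher both without the block, as it did 0.0471% of tested genes (0.0648% in either direction), and with it, as it did 0.0766% (0.183% in either direction). The median log2 fold change over the 9 genes was 0.31 and all 9 were above 0, beside a median of -0.0027 over the 16974 tested genes, of which 8359 were above 0.

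**Figure D2:**
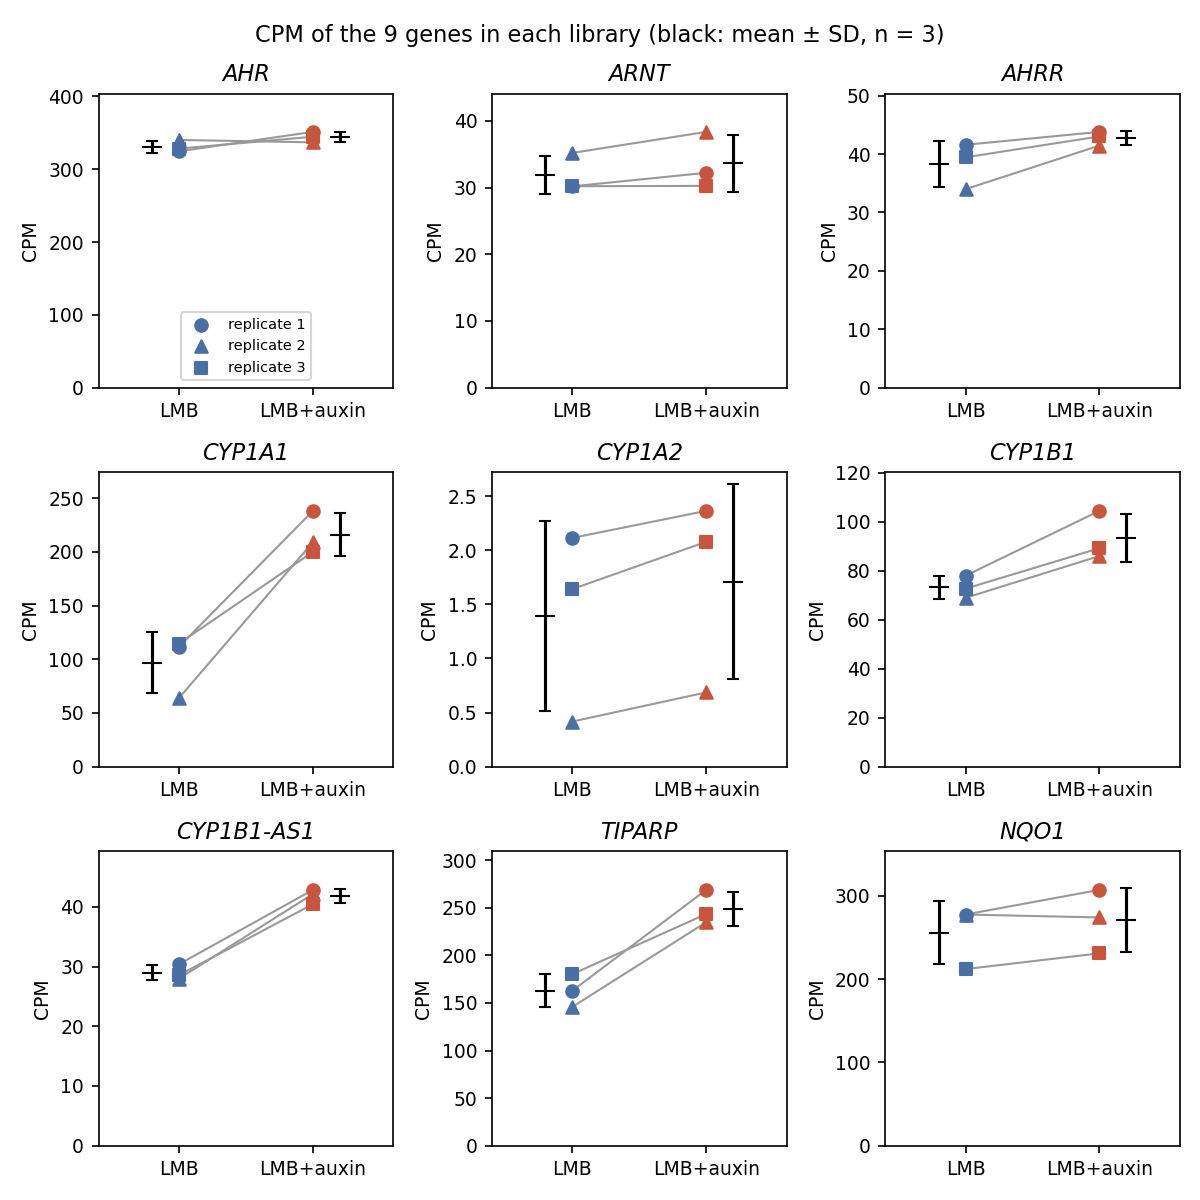
Level of each gene in CPM (axes from 0) in the 3 LMB libraries (blue) and the 3 LMB+auxin libraries (red), with grey lines between libraries of the same replicate number and the mean ± SD in black. The groups are apart for CYP1A1, CYP1B1, CYP1B1-AS1 and TIPARP and overlap for the other genes.

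AHR (ENSG00000106546, chromosome 7, 16916359 to 17346152, plus strand) is the ligand-binding receptor itself. It was measured at 324.6, 340.2 and 328.3 CPM in LMB replicates 1, 2 and 3 and at 351.3, 336.9 and 344.6 CPM in LMB+auxin replicates 1, 2 and 3. The 6 values lie within a narrow band, and in replicate 2 the LMB library was the higher. The log2 fold change was 0.06 ± 0.06 (SE, adjusted p = 0.954, edgeR). AHR shared 2373 exonic bases, 29.47% of its exons, with ENSG00000283321 on the same strand, which was higher in 3 of 3 pairs with a log2 fold change of 0.13 ± 0.07 (adjusted p = 0.954, edgeR). Reads in that stretch cannot be assigned to either gene from the counts.

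ARNT (ENSG00000143437, chromosome 1, 150809713 to 150876708, minus strand) encodes the partner with which the receptor binds DNA, and it also pairs with the hypoxia factor HIF1A. Its levels were 30.19, 35.2 and 30.21 CPM in LMB and 32.22, 38.36 and 30.26 CPM in LMB+auxin. Replicate 2 was the highest in both groups, and the groups overlapped. The fitted log2 fold change of ARNT was 0.08 ± 0.11 (adjusted p = 0.957, edgeR).

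AHRR (ENSG00000063438, chromosome 5, 321714 to 438291, plus strand) encodes the repressor that competes with AHR for ARNT. It stood at 41.59, 33.98 and 39.44 CPM in LMB and at 43.8, 41.45 and 43.02 CPM in LMB+auxin. The second LMB library was the lowest of the 6, and only the lowest LMB+auxin library fell within the LMB range. AHRR was higher in 3 of 3 pairs, by 1.053-, 1.22- and 1.091-fold, and was fitted at 0.16 ± 0.09 on the log2 scale (adjusted p = 0.954 in edgeR and 0.0953 with the replicate block).

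CYP1A1 (ENSG00000140465, chromosome 15, 74719542 to 74725536, minus strand) encodes the inducible P450 enzyme that oxidizes polycyclic aromatic hydrocarbons and is the usual reporter of receptor activity. It was at 111.7, 63.96 and 114.7 CPM in LMB and at 238.3, 209.1 and 200.1 CPM in LMB+auxin. Every LMB+auxin library lay above every LMB library, and LMB replicate 2 lay well below the other LMB libraries. The ratio within replicate numbers was 2.134, 3.269 and 1.745, the largest among the 9 genes in each of the 3 pairs.

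The log2 fold change of CYP1A1 was 1.16 ± 0.20 (SE). Its adjusted p was 0.644 in edgeR without the block and 0.181 with it, but 8.0e-07 in DESeq2 without the block and 0.00148 with it. Leaving out LMB replicate 2, edgeR without the block put it at 0.94 ± 0.09 with an adjusted p of 0.0125. Leaving out any other single library gave no call (adjusted p of 0.55 or more, edgeR without the block). With the block it was called when replicate pair 2 was left out, at 0.95, and when pair 3 was left out, at 1.40, but not when pair 1 was left out, at 1.23 (adjusted p = 0.539). The direction was the same in each of these fits.

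CYP1A2 (ENSG00000140505, chromosome 15, 74748845 to 74756607, plus strand) encodes the related enzyme of the liver and lies next to CYP1A1 on the opposite strand. It was near the limit of detection, with counts of 61, 13 and 59 in LMB and 70, 20 and 66 in LMB+auxin, or 2.114, 0.4168 and 1.641 CPM and 2.364, 0.6863 and 2.078 CPM. Replicate 2 was the lowest of both groups. Each LMB+auxin library was above the LMB library of its number, but the log2 fold change of 0.31 ± 0.56 was smaller than its error (adjusted p = 0.966, edgeR). With the replicate block it was 0.31 ± 0.19 (adjusted p = 0.353, edgeR).

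CYP1B1 (ENSG00000138061, chromosome 2, 38066973 to 38109902, minus strand) encodes the P450 enzyme of this family that is found mainly outside the liver and acts on estrogens and aromatic hydrocarbons. Its levels were 78.02, 68.96 and 72.71 CPM in LMB and 104.5, 86.06 and 89.25 CPM in LMB+auxin. The groups did not overlap, and LMB+auxin replicate 1 was the highest library. The log2 fold change was 0.35 ± 0.09 (adjusted p = 0.954) without the block and 0.35 ± 0.05 (adjusted p = 2.6e-07) with it (edgeR), which is just under the fold change of 1.3 that a call asks for. An adjusted p under 0.05 at any fold change, with the block, was found for higher levels of 1.11% of tested genes and of CYP1B1, CYP1B1-AS1 and TIPARP among the 9.

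CYP1B1-AS1 (ENSG00000232973, chromosome 2, 38073447 to 38231651, plus strand) is a lncRNA that runs opposite to CYP1B1. It was at 30.4, 27.99 and 28.57 CPM in LMB and at 42.86, 42.17 and 40.47 CPM in LMB+auxin. Both groups were tight, with SDs of 1.257 and 1.232 CPM, and well apart. For the lncRNA the log2 fold change was 0.53 ± 0.07 without the block (adjusted p = 0.174) and 0.53 ± 0.06 with it (adjusted p = 3.7e-11, edgeR). DESeq2 without the block gave an adjusted p of 7.5e-06. The genes CYP1B1 and CYP1B1-AS1 shared 678 exonic bases on opposite strands, 11.25% of the exons of CYP1B1 and 6.437% of those of the lncRNA. The strand setting of the counting was not given in the sources used here, so reads in the shared bases cannot be told apart.

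TIPARP (ENSG00000163659, chromosome 3, 156673235 to 156706770, plus strand) encodes a mono-ADP-ribosyltransferase that is induced by the receptor and restrains it. It stood at 162.8, 145.8 and 180.3 CPM in LMB and at 268.9, 234.9 and 243.5 CPM in LMB+auxin. Every LMB+auxin library was above every LMB library, by 1.652-, 1.611- and 1.35-fold within replicate numbers. The log2 fold change was 0.61 ± 0.09 (adjusted p = 0.261) without the block and 0.61 ± 0.05 (adjusted p = 4.4e-19) with it (edgeR), and DESeq2 without the block gave an adjusted p of 7.5e-06. In edgeR without the block TIPARP was called when LMB+auxin replicate 2 was left out, at 0.65 (adjusted p = 0.0287). It was not called in that fit when any other single library was left out (adjusted p of 0.468 or more). With the block it was called whichever replicate pair was left out, at 0.56, 0.58 and 0.71.

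NQO1 (ENSG00000181019, chromosome 16, 69706996 to 69726668, minus strand) encodes a quinone reductase driven by the antioxidant factor NRF2 as well as by the receptor. It was at 277.5, 277.5 and 212 CPM in LMB and at 307.1, 274 and 230.9 CPM in LMB+auxin. Replicate 3 was the lowest of both groups, and the groups overlapped. NQO1 had a log2 fold change of 0.08 ± 0.13 (adjusted p = 0.961, edgeR). An opposite-strand gene, ENSG00000261602, lies whole within its exons, over 575 bases or 19.35% of them.

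Counting direction alone, 7 of the 9 genes were higher in LMB+auxin in 3 of 3 pairs, which held for 21.4% of all tested genes. AHR and NQO1 were higher in 2 of 3 pairs.

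**Figure D3:**
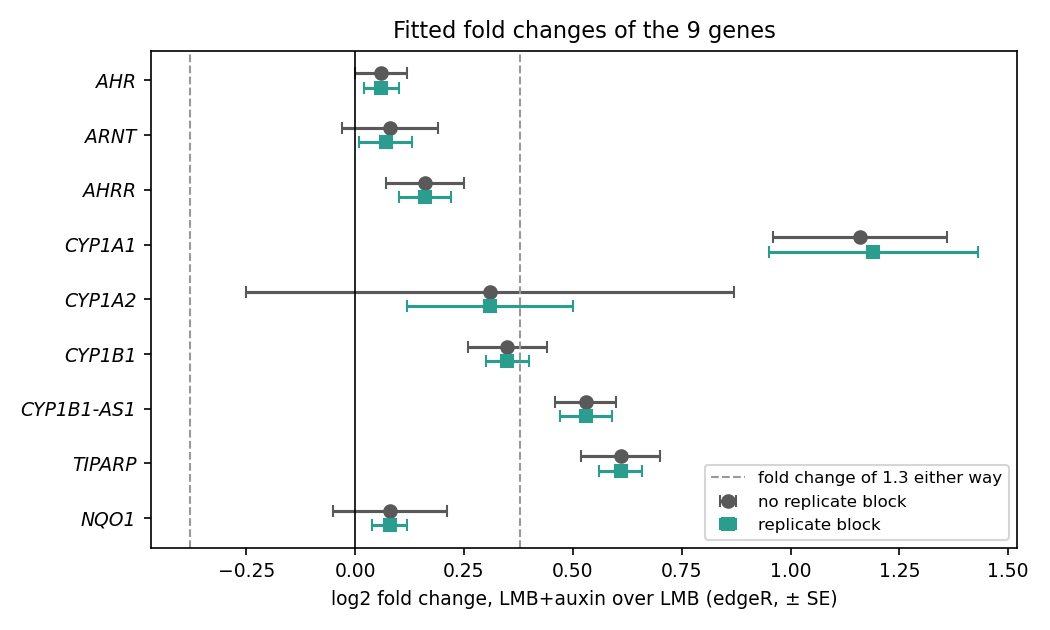
Log2 fold change of each gene (LMB+auxin over LMB, edgeR, bars are ± SE) without the replicate block (circles) and with it (squares), with dashed lines at a fold change of 1.3 either way. CYP1A1, TIPARP and CYP1B1-AS1 lie beyond the line, CYP1B1 at 0.35 just inside it, and the block narrows the bars of CYP1B1 and TIPARP but not that of CYP1A1.

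Levels were compared between genes as CPM per kilobase of exon sequence. The exon lengths came from a later gene release than the counts, so the order between genes depends on that release. In LMB the order of the group means was NQO1 (86.04), AHR (41.12), TIPARP (33.95), CYP1A1 (28.79), CYP1B1 (12.16), ARNT (4.942), AHRR (4.044), CYP1B1-AS1 (2.752) and CYP1A2 (0.444). The library ranges of TIPARP and CYP1A1 overlapped there, from 30.37 to 37.57 and from 19.03 to 34.12, and no other neighbours in the order did. In LMB+auxin CYP1A1 (64.22) and TIPARP (51.89) stood above AHR (42.76), behind NQO1 (91.11). The order of the other genes was the one found in LMB, and no neighbours overlapped. On this scale TIPARP and CYP1A1 stood below the receptor in each LMB library and above it in each LMB+auxin library. Their place relative to AHR in LMB+auxin rests on the length used for AHR, of which a part is shared with ENSG00000283321. If all its reads came from the 5678 bases not shared, AHR would stand at 59.34 to 61.87 in LMB+auxin, above TIPARP in all 3 libraries and below CYP1A1 in 2 of 3.

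**Figure D4:**
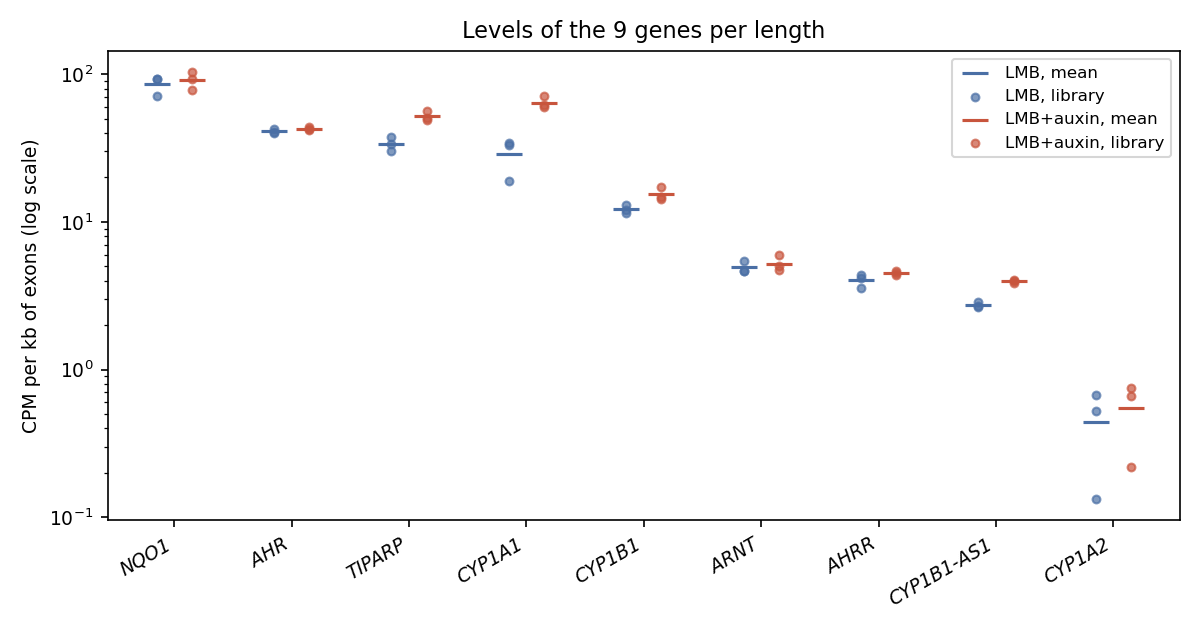
Level per length (CPM per kilobase of exons, log axis) of the 9 genes in the LMB libraries (blue) and the LMB+auxin libraries (red), with dashes for the means of 3 libraries, in the order of the LMB means. Over all exonic bases TIPARP and CYP1A1 lie below AHR in LMB and above it in LMB+auxin, and CYP1A2 lies under 1 throughout.

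Target genes were also compared within each library as log2 ratios of their levels per kilobase, which do not depend on library scaling. CYP1A1 over TIPARP was -0.03, -0.67 and -0.14 in LMB and 0.34, 0.35 and 0.23 in LMB+auxin, so that CYP1A1 rose relative to TIPARP. The sign of this ratio rests on the exon lengths used, and in CPM TIPARP was above CYP1A1 in every library. The difference between the group means, which does not depend on exon length, was 0.59. CYP1A1 over CYP1B1 was 1.36, 0.73 and 1.50 in LMB and 2.03, 2.12 and 2.01 in LMB+auxin, a difference of 0.86. TIPARP over CYP1B1 was 1.39, 1.41 and 1.64 in LMB and 1.69, 1.78 and 1.78 in LMB+auxin, a difference of 0.27. All 3 ratios were higher in 3 of 3 pairs without overlap between groups. Each had p = 0.1 in a two-sided exact permutation test over the libraries, also 0.1 after Benjamini-Hochberg adjustment over 3 ratios, which is the smallest p that 3 against 3 allows.

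The patterns most like those of CYP1A1 and TIPARP among the tested genes were sought by Pearson correlation of log2 CPM over the 6 libraries. For CYP1A1 these were ISCA2 (r = 0.988), PARG (r = 0.982) and LEKR1 (r = 0.982). ISCA2 is a mitochondrial iron-sulfur assembly gene and PARG removes poly-ADP-ribose. Their log2 fold changes were only 0.13 ± 0.08 and 0.11 ± 0.06, and neither was called in edgeR with or without the block. LEKR1, which lies beyond TIPARP on chromosome 3, was at 0.54 ± 0.12 (adjusted p = 0.89) without the block and at 0.53 with it (adjusted p = 3.5e-06, edgeR). For TIPARP these included NDUFA10 (r = 0.993), a subunit gene of respiratory complex I, and the histone methyltransferase gene EZH2 (r = 0.986), with log2 fold changes of 0.06 ± 0.06 and 0.13 ± 0.06. The points share the 6 libraries and the 2 groups, so these correlations describe and test nothing. Between the 9 genes the correlation was 0.97 for CYP1A1 with TIPARP and 0.95 for CYP1B1-AS1 with TIPARP, but 0.12 for CYP1A1 with NQO1.

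Other genes around the receptor were read from lists of 73 genes, of which 61 were tested. None was called by edgeR without the block (1 gene had an unadjusted p under 0.05) or with it (18 genes), nor by DESeq2 with or without the block. That p was reached by 4.37% of all tested genes in edgeR when the block was left out and by 19.9% when it was fitted. Of the 61 genes 40 were higher and 21 lower, with a median log2 fold change of 0.04. With the block 4 were higher and 1 lower at an adjusted p under 0.05, each by less than the fold change of 1.3.

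Of the cytosolic complex that holds the receptor, all 4 genes were tested. HSP90AA1, the inducible HSP90 chaperone gene, went from 3051 ± 122.8 to 3400 ± 165.4 CPM (mean ± SD, n = 3), a log2 fold change of 0.16 that passed an adjusted p under 0.05 only in edgeR with the block (0.0229), and not in DESeq2 with the block (0.0976) nor in edgeR with the block when any 1 pair was left out (0.126 to 0.191). Of 7 tested genes of the wider ARNT family and its partners none passed, and the extremes were the hypoxia factor gene EPAS1 (-0.05 ± 0.15) and the circadian gene CLOCK (0.13 ± 0.08). Of 7 coactivator genes none passed, between the acetyltransferase gene CREBBP (-0.13 ± 0.08) and the Mediator gene MED1 (0.15 ± 0.10). Of 5 genes of receptor turnover and nuclear transport, CRM1 (XPO1) included, none passed, between the ubiquitin ligase gene STUB1 (-0.06 ± 0.09) and the cullin gene CUL4B (0.11 ± 0.09).

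Of 13 further genes known as targets of the receptor 9 were tested, and GSTA1, GSTA2, SERPINB2 and IDO1 had no count in any library. Among the 9 tested, 7 were above 0 and 2 below, with a median log2 fold change of 0.16. UGT1A6 and UGT1A1, which encode glucuronosyltransferases for drugs and bilirubin, had log2 fold changes of 0.27 ± 0.12 and 0.21 ± 0.12 and passed an adjusted p under 0.05 with the block (0.00381 and 0.0417, edgeR). DESeq2 with the block gave adjusted p values of 0.127 for UGT1A6 and 0.352 for UGT1A1, and leaving out pair 3 took UGT1A6 to 0.193 in edgeR with the block. These genes and UGT1A9 (0.16 ± 0.13) share exons, so their counts are not independent. EREG, which encodes the growth factor epiregulin, passed likewise, at 0.17 ± 0.12 (adjusted p = 0.0102 with the block in edgeR and 0.0145 in DESeq2). CYP2S1, a P450 gene of epithelia, was the lowest at -0.03 ± 0.19. Of 9 genes whose enzymes make receptor ligands from tryptophan 5 were tested. IL4I1, an amino acid oxidase gene, was lower in 3 of 3 pairs, going from 10.14 ± 1.142 to 8.256 ± 0.6899 CPM, with a log2 fold change of -0.30 ± 0.12 and an adjusted p of 0.0354 with the block (edgeR). It did not pass in DESeq2 with the block (adjusted p = 0.449) or in edgeR with the block when any 1 pair was left out (0.0707 to 0.34). KMO, a hydroxylase gene, had the highest value at 0.15 ± 0.11.

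**Figure D5:**
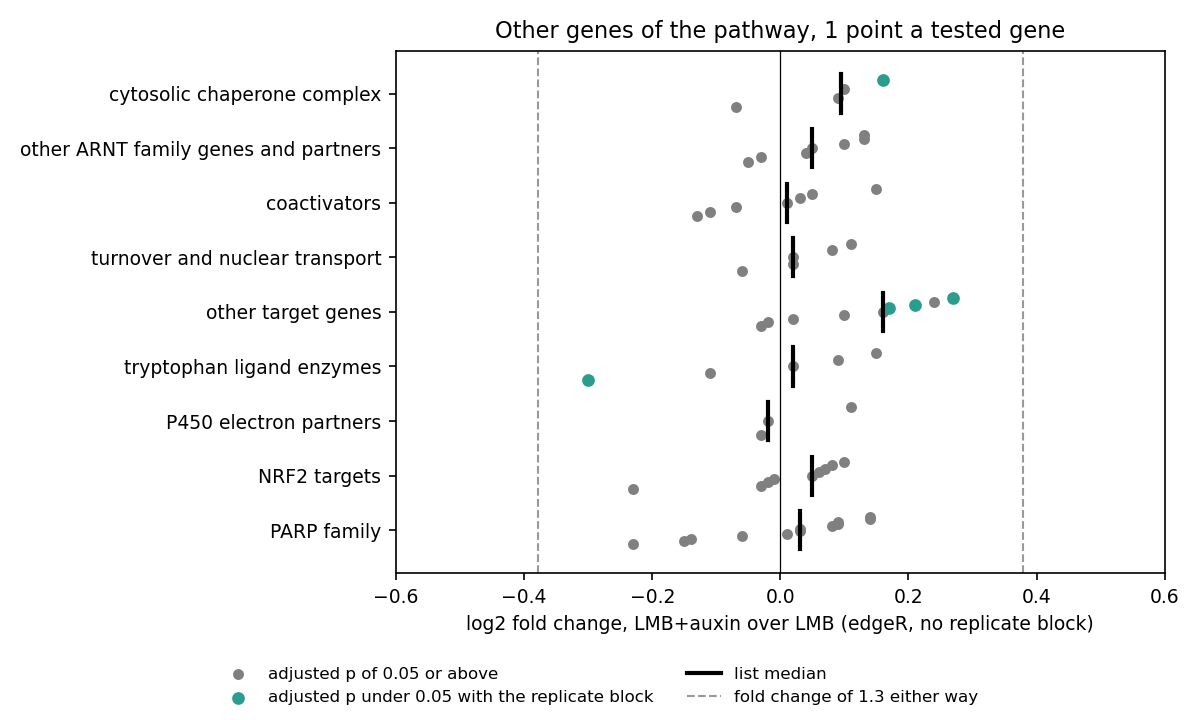
Log2 fold change (LMB+auxin over LMB, edgeR without the block) of the 61 tested genes in 9 lists around the receptor, with a vertical mark at each list's median, green points for genes with an adjusted p under 0.05 with the block and dashed lines at a fold change of 1.3 either way. All points lie inside the dashed lines, and 5 are green, of which IL4I1 is to the left of 0.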

How the data were processed

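Total RNA of 3 LMB and 3 LMB+auxin cultures, which the study's methods call independent biological replicates, was depleted of ribosomal RNA and sequenced in stranded, paired-end libraries. The authors aligned reads to GRCh38 and counted them per Ensembl gene; per the labels the tools were CASAVA 1.8.2, STAR 2.6.1c and featureCounts 1.5.2. The deposited values are raw counts per gene, without normalization. Symbols and coordinates came from GENCODE on GRCh38 for 56948 identifiers (98.1%), a later release than the one counted with, and promoters from RefSeq (GRCh38.p14). Groups were taken from the labels' treatment.

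Genes above 1 CPM in at least 3 libraries (16974) were tested with edgeR 4.0.16 (TMM, glmQLFit robust, glmQLFTest) in R 4.3.3, with Benjamini-Hochberg adjustment over all of them and genes were called below an adjusted p of 0.05 where the fold change also reached 1.3. SEs are the log2 fold change over the square root of F. DESeq2 1.42.0, limma 3.58.1 (voom), other scalings and filters, the replicate block and leaving out libraries were alternatives. The fits were tested on simulated data. Log2 CPM used a prior count of 2.

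Deviations from group means correlated between same-numbered libraries at 0.5312, 0.6914 and 0.2731, so the numbers, which come from the sample titles, were taken to pair the libraries. Between libraries of different numbers the correlation ran from -0.573 to 0.1457. The deviations of a group cancel by construction, so low values there follow in part from high ones between same-numbered libraries. The titles give only the numbers, so the pairing was inferred from these same data. Adding the block took the common biological coefficient of variation from 0.09891 to 0.04056.

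The 9 genes, the lists and the tests were chosen with earlier results of these data known. Named are all 9 genes, from each list the genes called in either edgeR fit and those with the highest and lowest log2 fold change, the 3 genes most like CYP1A1 and TIPARP, and genes that overlap or neighbor a member within 100 kb; 2 genes that this rule names are not reported here. Intervals and p-values cover the spread between these libraries only.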

Additional observations from a re-analysis of the deposited data

How the results depend on the processing

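The fold changes of the 9 genes were recomputed 152 times, of which 128 kept direction and side of the threshold, 20 gained a call and 4 turned sign, all on leaving out a library or a pair: ARNT between -0.03 and 0.16, CYP1A2 between -0.11 and 0.70 and NQO1 between -0.04 and 0.19. CYP1A1 ranged from 0.94 to 1.40, TIPARP from 0.54 to 0.71 and CYP1B1-AS1 from 0.50 to 0.56. Among the 9 genes 3 were called by DESeq2 with or without the block, 2 by edgeR with the replicate block and 2 without a filter on low counts (CYP1B1-AS1 and TIPARP), 0 or 1 without one library and 2 or 3 with the block without one pair. None of the 9 was called by limma-voom. The same held for edgeR with DESeq2 size factors, with library size alone, or with a filter that also asked for a level per kilobase above 1. Over all genes 1 was called by edgeR, 0 with library size alone, 11 by DESeq2, 31 by DESeq2 with the block, 39 without a filter and 201 by edgeR with the replicate block, 0 to 5 without one library and 129 to 184 with the block without one pair. Beyond the genes given in the text the block changed no call among the 9 genes and the 61 pathway genes. The ratios between genes ranged from 0.39 to 0.71 (CYP1A1 over TIPARP), 0.62 to 1.01 (CYP1A1 over CYP1B1) and 0.22 to 0.35 (TIPARP over CYP1B1) without one library, and an exact sign-flip test over the 3 replicate pairs (replicate block) gave p = 0.25 for each, the smallest it allows. Taking AHR over its unshared exonic bases only, an alternative chosen after seeing the data, moved its level from 41.12 to 58.3 CPM per kb in LMB and from 42.76 to 60.63 in LMB+auxin. DESeq2 with the block gave CYP1A2 no adjusted p. The cause of these changes was not tested.

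Genes close to 0 turned sign without one library or pair: AGR2 (-0.15 to 0.35), CSK (-0.06 to 0.10), CTSK (-0.08 to 0.44), CYB5R3 (-0.18 to 0.11), CYP2S1 (-0.20 to 0.11), ENSG00000261602 (-0.16 to 0.07), EPAS1 (-0.24 to 0.08), KRT19 (-0.08 to 0.05), LINC02888 (-0.27 to 0.17), NFAT5 (-0.05 to 0.06), PDCD6 (-0.04 to 0.02), SETDB1 (-0.08 to 0.02), STUB1 (-0.15 to 0.03) and VWF (-0.38 to 0.20). With library size alone CSK and NFAT5 were at -0.01.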

Other observations

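Genes that work beside the targets differed little. Of 3 genes for the electron partners of P450 enzymes none passed an adjusted p under 0.05 in edgeR with or without the block, between CYB5R3 (log2 fold change -0.03 ± 0.14) and CYB5A (0.11 ± 0.07). Of 9 NRF2 targets, which share that factor with NQO1, none passed, and the median was 0.05. The lowest was OSGIN1 (-0.23 ± 0.18) and the highest GCLC, a subunit gene of the glutathione synthesis enzyme (0.10 ± 0.08). Of 12 tested genes of the PARP family, to which TIPARP belongs, none passed, with a median of 0.03, the lowest in PARP10 (-0.23 ± 0.14) and the highest in PARP4 (0.14 ± 0.07). Among colon epithelial markers the extremes were KRT19 (-0.02 ± 0.09) and CDX2 (0.08 ± 0.07), and VWF had -0.06 ± 0.28.

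Genes beside TIPARP were also higher in 3 of 3 pairs. METTL15P1, a processed pseudogene 7114 bases beyond it, went from 1.113 to 1.903 CPM (log2 fold change 0.77 ± 0.20, adjusted p = 0.954) and was called with the block (adjusted p = 0.00703, edgeR), but not when pair 1 (0.104) or pair 3 (0.11) was left out. The divergent TIPARP-AS1 was at 1.856 and 2.207 CPM (0.26 ± 0.22) and was not called. Beside CYP1A1, EDC3, an mRNA decapping gene 23250 bases away, had 0.21 ± 0.08 (adjusted p = 0.00538 with the block in edgeR, 0.11 in DESeq2 with the block and 0.358 in edgeR with the block without pair 2), under the fold change of a call, and CSK, the next gene after CYP1A2, had 0.01 ± 0.08. Within the span of AHRR, ENSG00000214278 went from 1.502 to 2.305 CPM (0.61 ± 0.24, adjusted p = 0.954) and was called with the block (adjusted p = 0.0218, edgeR), but not when pair 1 (0.21) or pair 2 (0.151) was left out. DESeq2 with the block gave no adjusted p for METTL15P1 or ENSG00000214278. Its neighbors PDCD6 and EXOC3-AS1 had -0.02 ± 0.06 and 0.18 ± 0.13. RMDN2, which overlaps CYP1B1, had 0.19 ± 0.13, and the pseudogene GAPDHP25 beyond CYP1B1-AS1 0.19 ± 0.23.

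None of the other neighbors was called in edgeR with or without the block. Around AHR, ENSG00000237773 on the opposite strand was lower in 3 of 3 pairs at -0.21 ± 0.10, AGR2 was at 0.09 ± 0.23 and LINC02888 at -0.09 ± 0.22. Around ARNT, CTSK was at 0.22 ± 0.27 and SETDB1 at -0.02 ± 0.07. Around NQO1, the divergent NQO1-DT was at 0.14 ± 0.12, NFAT5 at 0.01 ± 0.08 and ENSG00000261602 at -0.03 ± 0.14.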
